A study of Homo sapiens with 6 samples.

Results

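YAP/TEAD target genes are genes that the coactivators YAP and TAZ switch on through the DNA-binding TEAD factors. The 10 members described here, CYR61, CTGF, ANKRD1, AXL, F3, AMOTL2, AMOTL1, AJUBA, LATS2 and TEAD1, were taken by gene name from a table of 58735 human genes. Messenger RNA had been sequenced from AZ-521 cells, a line of wild-type genotype that the labels place in gastric cancer, although cell banks give a carcinoma of the duodenum as its origin. PD samples had received 10 µM platycodon D, a triterpenoid saponin of the balloon flower, for 48 h, and DMSO samples the solvent for the same time, with 3 samples in each group. The series asked how platycodon D acts on gastric cancer cells. The labels leave unsaid whether the 3 samples of a group were cultured apart, so the spread behind each p-value may be technical. In bulk RNA, fewer cells that express a gene and less of its RNA per cell cannot be told apart.

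In the Hippo pathway the kinases MST1 and MST2 (STK4 and STK3) activate LATS1 and LATS2, which phosphorylate YAP and TAZ and keep them out of the nucleus. When the kinases are inactive, for example in spread cells under tension, YAP and TAZ enter the nucleus and bind TEAD factors. Several targets feed back on the pathway: LATS2 is itself one of its kinases, and angiomotin family proteins such as AMOTL1 and AMOTL2 bind YAP and promote LATS activity. CYR61 and CTGF also respond to other signals, such as serum response factor and AP-1.

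Reads over genes, recovered from the deposited values, numbered 15328454 to 15821524 in PD and 14915538 to 16341687 in DMSO samples. Levels are in FPKM, fragments scaled to gene length and library size, and changes were fitted with limma on log2(FPKM + 1) over 13579 genes with at least 1 FPKM in at least 3 samples. A gene "rose" or "fell" in PD at an adjusted p under 0.05. Of all genes tested, 14.3% rose and 12.7% fell, while scaling the samples to equal totals gave 1290 higher and 3158 lower genes against 1947 and 1731 as deposited, and moved the median of all genes by -0.13 on the log2 scale. PD replicate 3 and DMSO replicate 1 deviated from their group means in a like way (Pearson r = 0.38 across the tested genes), so results were also computed without both. Because both were picked for deviating in these data, a call that passes without them is not taken as added support. That fit had 17.8% of 12762 genes higher and 16.5% lower. Markers of the labelled tissue were mostly low: EPCAM had 0.096 ± 0.056 FPKM in PD and 0.10 ± 0.14 FPKM in DMSO samples (SD, n = 3 each), KRT18, KRT19, TFF1, TFF2 and GKN1 are listed at 0 in all 6 samples, and only 3 of 10 gut epithelium and 1 of 7 stomach markers passed the filter. The gut markers MUC1 and CLDN4 rose (log2 fold changes of 0.43 and 0.83), and the summed gut list stood at 7.46 to 8.69 FPKM in PD and 5.02 to 5.80 FPKM in DMSO samples, while the stomach list, nearly all SOX2, stood at 32.3 to 38.4 FPKM in PD and 37.8 to 41.1 FPKM in DMSO samples. SOX2 did not pass (adjusted p = 0.209), and the stomach mucin MUC5AC, below the filter, had 23, 22 and 17 reads in PD samples and is listed at 0 in all DMSO samples. The mesenchymal marker VIM, at 78.0 ± 9.50 FPKM in PD and 102 ± 6.03 FPKM in DMSO samples, fell, as did FN1 (log2 fold changes of -0.39 and -0.61), and the 7 mesenchymal markers summed to 115 to 131 FPKM in PD and 159 to 173 FPKM in DMSO samples. The part of these markers in the results below was not tested. Immune and endothelial markers summed to at most 0.397 FPKM in PD and 0.0345 FPKM in DMSO samples.

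The pathway's genes are known for a short TEAD recognition sequence, GGAATG or CATTCC on the other strand, in their promoters. RefSeq sequences of GRCh38 were searched over the 250 bases before the gene start, in 11 windows that matched 8 of the 10 members. CYR61 and TEAD1 had no window and were not searched for any motif. The start is RefSeq's, and AJUBA, AMOTL2 and AXL have a second window at an alternative start inside the gene. A match stood in 5 of the 11 windows, of 5 members, CTGF, ANKRD1, AJUBA, AMOTL2 and AXL, against 11.89% of 35116 windows of all genes. Since the members were listed as targets of TEAD factors, this contrast is a description and not a test. CTGF held 3 matches, at 169, 104 and 95 bases before the start, and 0.083% of all windows held 3 or more. ANKRD1 held 2, at 220 and 128 bases, and 0.94% of windows had 2 or more. The matches of AJUBA, AMOTL2 and AXL stood in the inner window and their outer windows held 0, and the ANKRD1 match at 128 bases lies within the gene as the deposited table bounds it. The stretches with the matches in capitals are given 5′ to 3′ on the strand of the gene. CTGF and ANKRD1 share the motif and their levels moved by different amounts. AJUBA and AMOTL2 carry it before an inner start and fell. Any part of the motif in these changes was not tested. The ANKRD1, AJUBA, AMOTL2 and AXL stretches were kept short of annotated exons or to 30 bases.
CTGF, chr6:131951374-131951622, minus strand: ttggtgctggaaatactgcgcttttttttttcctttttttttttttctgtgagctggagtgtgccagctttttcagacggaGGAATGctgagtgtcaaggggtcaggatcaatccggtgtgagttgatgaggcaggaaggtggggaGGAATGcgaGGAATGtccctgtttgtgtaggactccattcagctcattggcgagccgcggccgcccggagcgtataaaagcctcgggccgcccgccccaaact
ANKRD1, chr10:90921277-90921337, minus strand: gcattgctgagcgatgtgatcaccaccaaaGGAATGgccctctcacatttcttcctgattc
ANKRD1, chr10:90921198-90921227, minus strand: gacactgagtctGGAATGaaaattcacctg
AJUBA, chr14:22976884-22976913, minus strand: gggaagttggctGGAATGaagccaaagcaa
AMOTL2, chr3:134374499-134374528, minus strand: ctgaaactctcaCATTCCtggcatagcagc
AXL, chr19:41226531-41226560, plus strand: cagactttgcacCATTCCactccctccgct

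A search for the AP-1 sequence TGANTCA (N is any base; it reads the same on both strands) found it in ANKRD1 once and in F3 as a pair, against 6.57% of all windows with at least 1. The CArG box of serum response factor was found in 0 of the 11 member windows, which leave out CYR61 and TEAD1, and in 1.16% of all windows. In F3 the pair lay 223 and 210 bases before the start, within the stretch shown with both matches in capitals, and no TEAD match lay in the window.
F3, chr1:94541958-94541987, minus strand: gcggtTGAATCActggggTGAGTCAtccct

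The members did not move as 1 block. CYR61 and ANKRD1 rose by more than 2-fold, AJUBA, AMOTL2 and TEAD1 fell by less than 2-fold, CTGF and LATS2 did not pass the test, and F3, AXL and AMOTL1 were near or below the filter. Of the 8 members that passed the filter, 3 rose and 3 fell, beside the 14.3% and 12.7% of all genes given above. F3 is among the 3 that rose and passed the filter only through PD samples, so its place in that count was set by the filter. With no filter 3 members rose and 2 fell, beside 4.48% and 3.32% of 32355 genes with any reads. Limma's voom on the recovered reads with the deposited scaling and at least 10 reads, a fit added after the data were seen, had 3 that rose and 4 that fell, beside 16.2% and 15.0% of 16377 genes. Without PD replicate 3 and DMSO replicate 1, 2 rose and 3 fell, beside 17.8% and 16.5% of 12762 genes, and F3 was then not tested. With equal totals 3 rose and 3 fell, beside 9.50% and 23.3%. The 7 members other than F3, AXL and AMOTL1 had at least 1 FPKM in every sample. By size as well, 2 members rose at least 2-fold, as did 2.84% of all genes tested, and 0 fell that far, as did 0.979%. With no filter these were 2 and 0 members, beside 1.10% and 0.383%, and with voom 3 and 0, beside 6.44% and 3.77%. PD and DMSO samples did not overlap for 8 of the 10 members, 4 higher and 4 lower, while 27.3% of the genes with any reads had separate groups, 14.4% higher and 12.9% lower. Among genes that passed the filter these shares were 44.4%, 22.5% and 21.9%. The median log2 fold change was 0.12 over the 8 and 0.0069 over the 7 other than F3, beside 0.0010 for all genes tested.

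**Figure D1:**
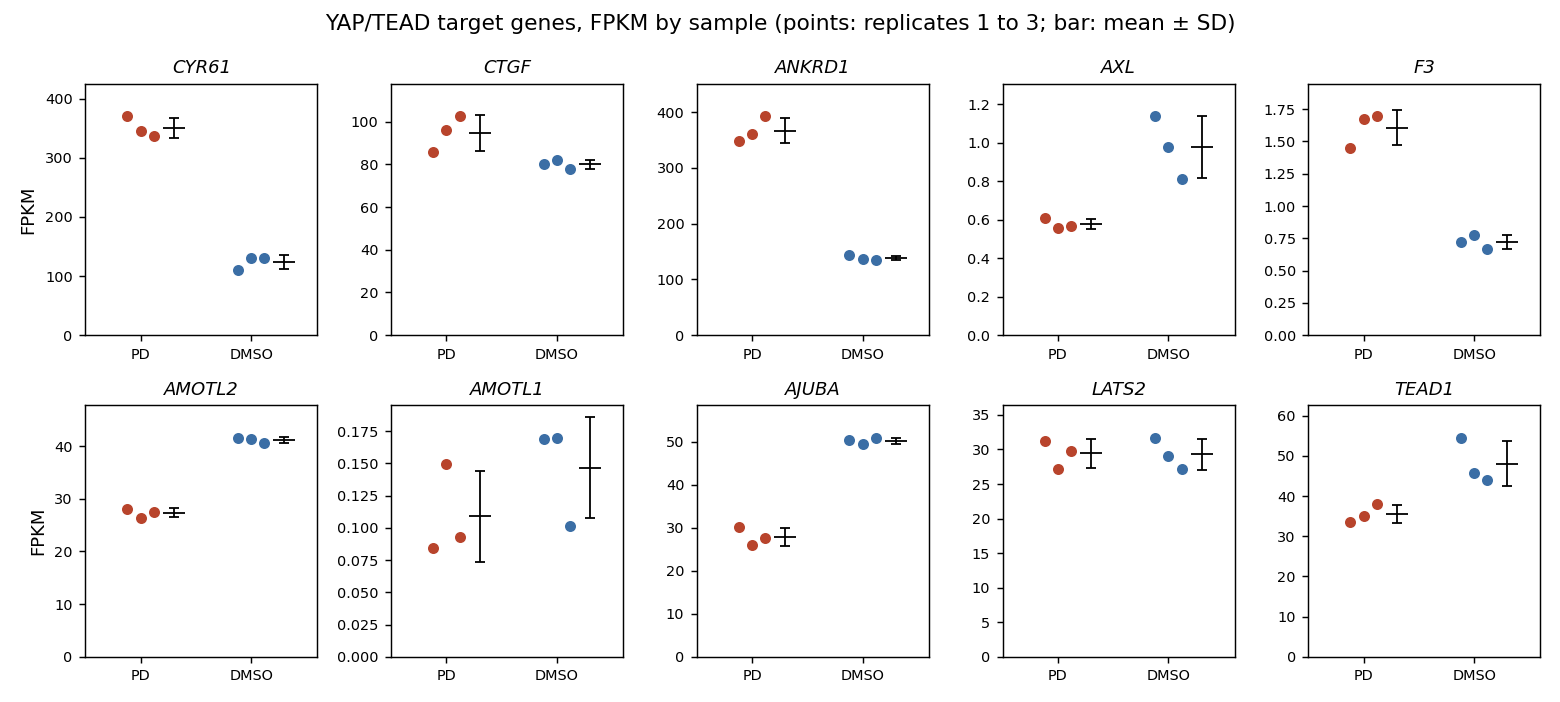
FPKM of each of the 10 members in every sample, PD left of DMSO, with points for replicates 1 to 3 and the mean with its SD beside them; each vertical axis starts at 0 and has its own scale. CYR61, ANKRD1, CTGF and F3 are higher in all 3 PD samples than in any DMSO sample, AJUBA, AMOTL2, TEAD1 and AXL are lower, and LATS2 and AMOTL1 overlap.

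CYR61 (ENSG00000142871, chromosome 1, 85580761 to 85583962, plus strand, GRCh38) encodes a secreted matricellular protein that binds integrins and is also called CCN1. It had 370, 346 and 338 FPKM in PD samples and 110, 130 and 131 FPKM in DMSO samples. The lowest PD sample was more than 2-fold above the highest DMSO sample. Means were 351 ± 16.9 FPKM in PD and 124 ± 11.8 FPKM in DMSO samples (SD, n = 3 each), a 2.84-fold ratio from 12428 to 13959 reads in PD and 4151 to 5664 reads in DMSO samples. The log2 fold change was 1.50 ± 0.10 (SE, 95% interval 1.26 to 1.74, adjusted p = 0.000218 in limma), and 99.1% of all genes tested lay at or below it.

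CTGF (ENSG00000118523, chromosome 6, 131948176 to 131951373, minus strand), also called CCN2, is a paralog of CYR61 and the most used readout of YAP activity. It had 85.8, 95.9 and 102 FPKM in PD samples and 80.4, 81.9 and 77.9 FPKM in DMSO samples. All 3 PD samples were above all DMSO samples, though the lowest of them by a narrow margin. Its log2 fold change of 0.24 ± 0.09 did not pass the test (95% interval 0.016 to 0.46, adjusted p = 0.103 in limma). The interval leaves out a 2-fold change. CTGF passed with array weights (adjusted p = 0.0265), and adjusted p-values under all alternatives ran up to 0.496 with equal totals, where it stood at 0.08. Relative to the median of all genes under that scaling it stood at 0.21. An antisense gene, AL133346.1, overlaps its 5′ end at a mean of 0.771 FPKM over the 6 samples, and reads of the pair could be mixed if counting ignored the strand, a setting the sources do not state.

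Both CCN paralogs were closer in level in DMSO than in PD samples. The ratio of CYR61 to CTGF, in FPKM, was 4.32, 3.61 and 3.30 in PD samples and 1.37, 1.59 and 1.68 in DMSO samples. It was higher in all 3 PD samples than in any DMSO sample, by 1.27 on the log2 scale. A two-sided exact permutation test gave p = 0.1, the smallest that 3 against 3 samples allow, and 0.133 adjusted over the 4 ratios tested. Of the other paralogs in this family, WISP1 and WISP2 are listed at 0 in every sample, while NOV and WISP3 averaged 0.0907 and 0.102 FPKM in PD and 0.0073 and 0.101 FPKM in DMSO samples, below the filter.

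ANKRD1 (ENSG00000148677, chromosome 10, 90912096 to 90921276, minus strand) encodes an ankyrin repeat protein of the muscle sarcomere and nucleus that is induced by stretch and by YAP. It had 348, 360 and 392 FPKM in PD samples and 143, 137 and 135 FPKM in DMSO samples. The groups were far apart and each was narrow, at 367 ± 22.9 FPKM in PD and 139 ± 4.08 FPKM in DMSO samples. ANKRD1 rose, with a log2 fold change of 1.40 ± 0.09 (95% interval 1.18 to 1.61, adjusted p = 0.00016 in limma), and it was the member with the highest mean level in both groups. Its ratio to CTGF was 4.06, 3.75 and 3.83 in PD samples and 1.78, 1.68 and 1.74 in DMSO samples (exact permutation p = 0.1, 0.133 adjusted over the 4 ratios). The ratio of CYR61 to ANKRD1 overlapped between the groups, at 1.06, 0.962 and 0.861 in PD and 0.769, 0.948 and 0.965 in DMSO samples (exact permutation p = 0.5). The muscle ankyrin repeat paralogs ANKRD2 and ANKRD23 were below the filter at 0.166 and 0.239 FPKM in PD and 0.152 and 0.227 FPKM in DMSO samples.

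F3 and AXL are membrane proteins at the cell surface, and both were expressed at low levels. F3 (ENSG00000117525, chromosome 1, 94529225 to 94541800, minus strand) encodes tissue factor, the receptor that starts blood coagulation with factor VII. It had 1.45, 1.68 and 1.69 FPKM in PD samples, from 64, 74 and 73 reads, and 0.725, 0.775 and 0.670 FPKM in DMSO samples, from 32, 38 and 34 reads. All PD samples were above all DMSO samples, and F3 rose (log2 fold change 0.60 ± 0.12, adjusted p = 0.0105 in limma, 0.0357 with no filter, which removes the selection named above). Because the pseudocount of 1 compresses values of this size, the added voom fit gave a larger log2 fold change of 1.14 ± 0.23 (adjusted p = 0.00298). Factor VII itself (F7) and the tissue factor inhibitors TFPI and TFPI2 were below the filter in both groups, with means of 0.0463, 0.0131 and 0.195 FPKM in PD and 0.0158, 0.0070 and 0.0913 FPKM in DMSO samples.

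AXL (ENSG00000167601, chromosome 19, 41219203 to 41261766, plus strand) encodes a receptor tyrosine kinase bound by GAS6. It had 0.606, 0.556 and 0.570 FPKM in PD samples and 1.14, 0.978 and 0.813 FPKM in DMSO samples, from 44 to 48 reads in PD and 74 to 90 reads in DMSO samples. All PD samples were below all DMSO samples, opposite to F3, so that AXL was above F3 in DMSO and below it in PD samples. AXL did not enter the test as filtered. With no filter it did not pass (-0.32 ± 0.12, adjusted p = 0.17), and the added voom fit placed it at -0.73 ± 0.22 (95% interval -1.22 to -0.24, adjusted p = 0.0266). The other receptors of its family, TYRO3 and MERTK, were higher than AXL, at 4.20 and 6.54 FPKM in PD and 4.34 and 6.14 FPKM in DMSO samples, and did not pass (adjusted p = 0.824 and 0.486). Of their ligands, PROS1 rose (23.6 ± 2.03 FPKM in PD and 16.8 ± 2.86 FPKM in DMSO samples, adjusted p = 0.0338 in limma), a call that held under 10 of 18 alternatives. It ended when any replicate but DMSO replicate 1 was left out (0.0615 to 0.108), with no filter (0.0846) and with equal totals (0.0683). GAS6 stood at 4.18 FPKM in PD and 3.67 FPKM in DMSO samples without passing (0.34).

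Of the members that act on the Hippo pathway, AMOTL2 and AJUBA fell, LATS2 did not pass and AMOTL1 was below the filter. AMOTL2 (ENSG00000114019, chromosome 3, 134355874 to 134375479, minus strand), an angiomotin family scaffold that binds YAP at cell junctions, had 28.0, 26.4 and 27.6 FPKM in PD samples and 41.5, 41.4 and 40.6 FPKM in DMSO samples. The spread within each group was under 1 FPKM (SD 0.845 and 0.529), against a gap of more than 10 FPKM between the groups. AMOTL2 fell to 0.664 times its DMSO mean, a log2 fold change of -0.57 ± 0.08 (95% interval -0.75 to -0.40, adjusted p = 0.00233 in limma). Its paralog AMOTL1 (ENSG00000166025, chromosome 11, 94706431 to 94876753, plus strand) was close to undetected, with 13, 23 and 14 reads in PD and 26, 29 and 18 reads in DMSO samples, or 0.0844, 0.149 and 0.0931 FPKM in PD and 0.169, 0.169 and 0.102 FPKM in DMSO samples. The groups overlapped, and the added voom fit gave -0.41 with an interval from -1.21 to 0.39, so no change of AMOTL1 was detected at these read counts. The third paralog, AMOT, averaged 0.0386 FPKM in PD and 0.0862 FPKM in DMSO samples, so that AMOTL2 was the angiomotin family member above the filter.

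AJUBA (ENSG00000129474, chromosome 14, 22971174 to 22982642, minus strand) encodes a LIM domain protein of cell junctions that binds LATS kinases and limits their activity. It had 30.1, 25.9 and 27.7 FPKM in PD samples and 50.3, 49.5 and 50.8 FPKM in DMSO samples. The highest PD sample was well below the lowest DMSO sample. AJUBA fell to 0.556 times its DMSO mean, with a log2 fold change of -0.83 ± 0.09 (95% interval -1.03 to -0.62, adjusted p = 0.000991 in limma), the largest fall among the members tested, and 2.24% of all genes tested lay at or below it. Its relatives LIMD1 and WTIP stood at -0.07 and -0.46 on the log2 scale without passing (adjusted p = 0.638 and 0.0577).

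LATS2 (ENSG00000150457, chromosome 13, 20973032 to 21061547, minus strand), the kinase that phosphorylates YAP, had 31.3, 27.2 and 29.8 FPKM in PD samples and 31.6, 29.1 and 27.1 FPKM in DMSO samples. The groups overlapped over their whole range, with means of 29.4 ± 2.05 FPKM in PD and 29.3 ± 2.25 FPKM in DMSO samples. The log2 fold change of 0.0069 had an interval from -0.22 to 0.23 (adjusted p = 0.966 in limma), and its sign turned under other scalings (-0.15 with equal totals, or -0.02 relative to the median of all genes there). Its paralog LATS1 had 10.1 ± 1.02 FPKM in PD and 10.1 ± 1.32 FPKM in DMSO samples (adjusted p = 0.998). The ratio of AMOTL2 to LATS2 within a sample was 0.896, 0.969 and 0.925 in PD and 1.31, 1.42 and 1.49 in DMSO samples, lower in all 3 PD samples (exact permutation p = 0.1, 0.133 adjusted over the 4 ratios).

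TEAD1 (ENSG00000187079, chromosome 11, 12674591 to 12944483, plus strand), a DNA-binding partner of YAP, had 33.6, 34.9 and 38.1 FPKM in PD samples and 54.4, 45.7 and 44.0 FPKM in DMSO samples. All PD samples were below all DMSO samples, and DMSO replicate 1 was the highest. TEAD1 fell, with means of 35.5 ± 2.32 FPKM in PD and 48.1 ± 5.57 FPKM in DMSO samples and a log2 fold change of -0.42 ± 0.11 (95% interval -0.67 to -0.17, adjusted p = 0.0263 in limma). The call ended without PD replicate 1 or 2 or DMSO replicate 2 (adjusted p = 0.0856, 0.0904 and 0.0615) and with no filter (0.0600), with the direction kept. Without both PD replicate 3 and DMSO replicate 1, left out for their deviation, TEAD1 stood at -0.38 (0.0130).

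**Figure D2:**
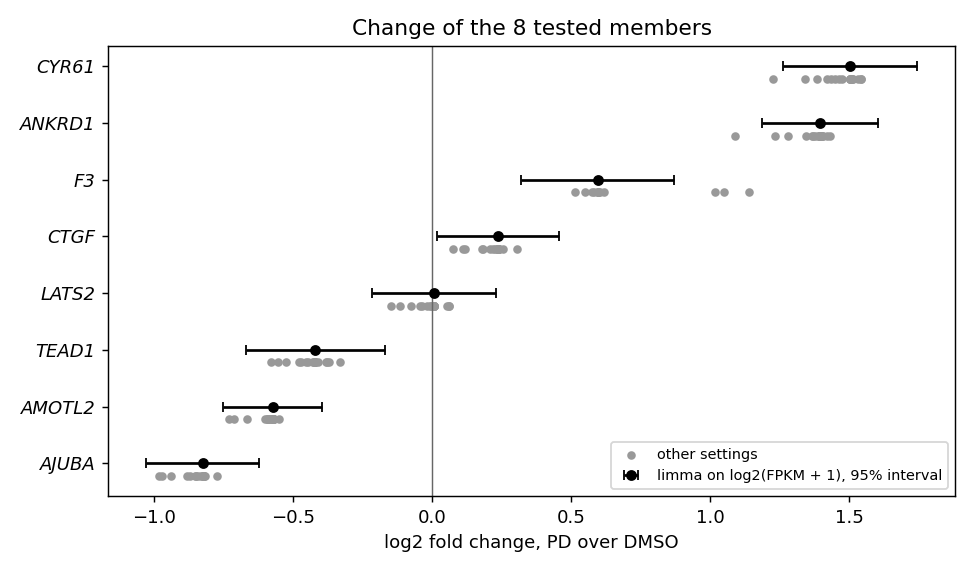
Log2 fold change of PD over DMSO for the 8 members tested, from limma on log2(FPKM + 1) with 95% intervals (black), and under the other processing settings (grey, placed just below each). CYR61 and ANKRD1 lie above 1 in every setting drawn, AMOTL2 and AJUBA lie below -0.5 in every setting drawn, and LATS2 lies on both sides of 0.

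The order of the members by level differed between the groups. In PD samples ANKRD1 and CYR61 came first with overlapping ranges, followed by CTGF, TEAD1, and then LATS2, AJUBA and AMOTL2, whose values overlapped at 25.9 to 31.3 FPKM. In DMSO samples ANKRD1 came first, then CYR61 and CTGF, then AJUBA and TEAD1 with overlapping ranges, AMOTL2 and LATS2. CYR61, ANKRD1 and CTGF together held 86.9% of the summed FPKM of the 10 members in PD and 66.8% in DMSO samples. AJUBA, AMOTL2 and TEAD1 held 2.98%, 2.92% and 3.80% in PD and 9.78%, 8.03% and 9.37% in DMSO samples. The shares depend on the sum, of which CYR61 and ANKRD1 held 37.6% and 39.2% in PD and 24.1% and 27.0% in DMSO samples. LATS2, which did not pass, also had a smaller share in PD samples, at 3.15% against 5.71%. So did CTGF, at 10.1% against 15.6%, though its FPKM was higher in all PD samples. A smaller share is thus not by itself a fall in level. Over the 6 samples, the protein-coding genes whose log2(FPKM + 1) followed CYR61 most closely among 10662 tested included VGF and SPSB1 (Pearson r = 0.999 each), and those that followed CTGF were DPAGT1, SDHAF2 and OXSR1 (r = 0.995, 0.987 and 0.983). Both sets share the 2 group levels of the same libraries, and they are given as a description.

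Of the factors that act on these targets, TEAD4 was the 1 that fell besides TEAD1. YAP1, the coactivator, had 96.9, 96.5 and 110.3 FPKM in PD samples and 133, 114 and 115 FPKM in DMSO samples. The groups did not overlap, and its log2 fold change of -0.25 ± 0.10 did not pass (adjusted p = 0.116 in limma). YAP1 passed under 5 of 18 alternatives, among them equal totals (0.0107). Another was the fit without PD replicate 3 and DMSO replicate 1 (0.0457), which were left out for their deviation. WWTR1, which encodes TAZ, stood at 3.49 ± 0.435 FPKM in PD and 3.39 ± 0.381 FPKM in DMSO samples (adjusted p = 0.864). TEAD4 had 22.9, 19.4 and 17.2 FPKM in PD samples and 23.6, 27.6 and 29.5 FPKM in DMSO samples. It fell at -0.42 ± 0.13, close to the threshold (adjusted p = 0.0484), and each of PD replicates 2 and 3 and DMSO replicates 2 and 3 ended the call when left out (0.106 to 0.147), as did a pseudocount of 0.1 (0.0503), no filter (0.111) and a fit with no mean-variance trend (0.057). TEAD2 and TEAD3 stood at -0.31 and 0.23 (0.189 and 0.175), and VGLL4, which competes with YAP for TEAD, at -0.44 (0.0651). VGLL1, VGLL2 and VGLL3 were below the filter. Of the 6 factors tested 1 fell and 0 rose, beside 12.7% and 14.3% of all genes tested, with a median log2 fold change of -0.28. Without PD replicate 3 and DMSO replicate 1, 4 of the 6 fell, in a fit that had 16.5% of all genes lower. With equal totals 3 fell, where 23.3% of all genes were lower, and the count was 0 when any of PD replicates 2 and 3 and DMSO replicates 2 and 3 was missing.

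Among Hippo kinases and upstream regulators 2 of 29 tested rose and 3 fell, beside 14.3% and 12.7% of all genes tested, with a median of -0.03. WWC1, the scaffold KIBRA that activates LATS kinases, had 11.2, 11.0 and 11.0 FPKM in PD samples and 5.68, 5.27 and 5.28 FPKM in DMSO samples. It rose by 0.91 ± 0.08 (adjusted p = 0.000496 in limma) and did so under all 18 alternatives. FAT4, an atypical cadherin, fell (2.20, 2.48 and 2.25 FPKM in PD and 4.38, 4.19 and 4.09 FPKM in DMSO samples; -0.66 ± 0.09, adjusted p = 0.00278), while its ligand DCHS1 rose by 0.41 (adjusted p = 0.0357). DCHS1 passed under 7 of 17 alternatives, and did not when any 1 replicate was left out (0.0551 to 0.108), without both PD replicate 3 and DMSO replicate 1 (0.0682), with no filter (0.0958) or with equal totals (0.0886). The kinase MAP4K4 and the polarity gene LLGL1 fell by 0.34 and 0.36 (adjusted p = 0.0181 and 0.032). MAP4K4 did not pass without PD replicate 2 or DMSO replicate 2 or 3 (0.0569 to 0.0715), nor LLGL1 without these or PD replicate 1 (0.089 to 0.116) or with no filter (0.0652). The core kinases STK3 and STK4, their partners SAV1, MOB1A and MOB1B, and NF2 did not pass, with log2 fold changes of 0.09, 0.09, 0.18, -0.16, 0.35 and 0.20 and adjusted p-values between 0.127 and 0.685. With equal totals 1 regulator rose and 8 fell, where 9.50% of all genes were higher and 23.3% lower. Without PD replicate 3 and DMSO replicate 1, 6 rose and 5 fell, where 17.8% were higher and 16.5% lower.

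Other YAP/TAZ targets taken from the literature gave 7 of 18 tested genes that rose and 2 that fell, with a median of 0.17. Among all genes tested 14.3% rose and 12.7% fell. NUAK2, a kinase of the AMPK family, had 15.5, 15.6 and 15.4 FPKM in PD samples and 7.02, 7.72 and 6.93 FPKM in DMSO samples (log2 fold change 1.01 ± 0.08, adjusted p = 0.000385 in limma). MYOF, a membrane repair protein, had 4.79 ± 0.24 FPKM in PD and 2.04 ± 0.31 FPKM in DMSO samples (0.93 ± 0.11, adjusted p = 0.00152). In both genes every PD sample was above every DMSO sample. GADD45A, which answers many stress signals besides YAP, had the largest rise of the list (1.50 ± 0.10, adjusted p = 0.000225). BIRC5, which encodes the mitotic protein survivin, fell by 0.99 ± 0.11 (adjusted p = 0.00151), and the transglutaminase TGM2 fell by 0.47 (adjusted p = 0.0194). TGM2 did not pass without PD replicate 2 or DMSO replicate 2 or 3 (0.0525 to 0.0794). With equal totals 5 of the 18 rose and 5 fell, beside 9.50% and 23.3% of all genes. Without PD replicate 3 and DMSO replicate 1, 8 rose and 2 fell, beside 17.8% and 16.5%. Among 21 paralogs and ligands of the members, several named above, 1 of 11 tested rose (PROS1) and 1 fell (TEAD4), beside the same 14.3% and 12.7%.

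**Figure D3:**
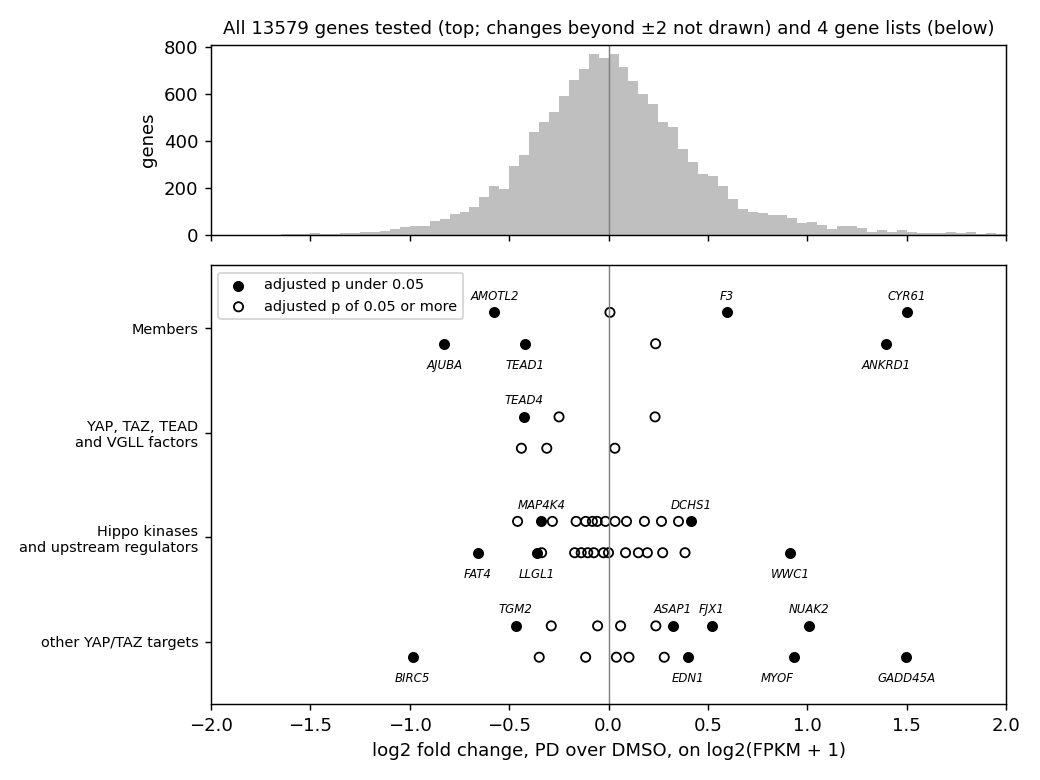
Log2 fold change of PD over DMSO for all 13579 genes tested (histogram) and for the tested genes of 4 lists (points; filled where the adjusted p is under 0.05, with names; 1 gene of the other YAP/TAZ targets is not drawn). The members and the other YAP/TAZ targets have filled points on both sides of 0, and the regulators lie mostly within the bulk of all genes.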

How the data were processed

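The deposited table gives the authors' FPKM values, with 1 column per sample, beside the gene length. Per the labels' protocols, libraries came from a stranded mRNA kit, read as pairs on a HiSeq. Aligner, counter and strand setting were not given in the sources used here. Mouse builds stand in the submitters' processing notes, but all 58735 identifiers and coordinates are those of human GENCODE release 29 (GRCh38). The 27 gene names that a spreadsheet had turned into dates were restored by identifier. Columns were matched to samples by their prefix and by the last number of the title. FPKM times gene length was a whole multiple of 1 step per sample for 100% of values above 0 (tolerance 0.01 reads), which gave reads. The implied FPKM denominators were 0.947 to 1.00 times the read totals in PD and 1.03 to 1.10 times in DMSO samples, a scaling of unstated origin.

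The groups were compared in limma 3.58.1 (R 4.3.3, mean-variance trend, two-sided, Benjamini-Hochberg over all genes tested) on log2(FPKM + 1), a scale that understates changes of low genes. The fit was tested on simulated data scaled to read totals, which cannot speak to the deposited scaling. Exact tests used scipy 1.17.1. Named genes were all members, up to 4 passing genes in each direction per list, all YAP, TAZ, TEAD and VGLL factors, and the 3 genes most correlated with CYR61 or CTGF. A few of the genes so chosen are not reported here. Relatives of a member named with it and the core kinases were chosen after their values were seen. The members and lists were chosen with earlier results of these data known. Alternatives varied the pseudocount, filter, scaling, variance model, sample weights, recovered reads (voom), replicate block and samples. Figures used matplotlib 3.10.9.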

Additional observations from a re-analysis of the deposited data

How the results depend on the processing

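CYR61, ANKRD1, AMOTL2 and AJUBA kept their direction and passed under all 18 alternatives. Their log2 fold changes ran over 1.23 to 1.54, 1.09 to 1.43, -0.73 to -0.55 and -0.98 to -0.78. F3 passed under the 13 that tested it, at 0.51 to 1.14. It was not tested without any 1 PD replicate, without PD replicate 3 and DMSO replicate 1, or at a mean of at least 5 FPKM. Most of the 13 used the filter that F3 passed only through PD samples, so they are not taken as added support. The fit with no filter (adjusted p = 0.0357 in limma) and the added voom fit (0.00298) did not use it. CTGF passed with array weights at 0.23. TEAD1 did not pass with no filter (-0.42), with the replicate block (-0.42) or without PD replicate 1, PD replicate 2 or DMSO replicate 2. Its log2 fold change ranged from -0.48 to -0.33 over all 6 fits with 1 replicate left out. LATS2 turned negative with equal totals (-0.15), quantile (-0.075) and upper quartile scaling (-0.020), array weights (-0.0098) and voom on the recovered reads (-0.12), and ranged from -0.045 to 0.062 with 1 replicate left out. WWTR1 turned negative with equal totals (-0.094) and voom (-0.081), and ranged from -0.046 to 0.10 with 1 replicate left out. Members that rose and fell numbered 2 to 3 and 2 to 3 with 1 replicate left out.

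Replicate numbers did not pair the samples: deviations of same-numbered samples correlated at -0.39, 0.17 and -0.16, and 1 of 3 PD samples matched its own number best. With the replicate block 1089 genes were higher and 755 lower, and PROS1, DCHS1, TEAD4, LLGL1, MAP4K4 and TGM2 did not pass (0.0957, 0.104, 0.137, 0.0945, 0.0909 and 0.0662). Among all genes tested the counts moved by over 1.5 times to 1254 higher and 960 lower at a mean of at least 5 FPKM, 1290 and 3158 with equal totals, 3189 and 3112 with array weights, to 1075 lower with no filter and to 3143 lower with voom on the recovered reads, and ranged over 1049 to 1861 higher and 868 to 1649 lower with 1 replicate left out. AMOTL1, AXL and F3 rest on 13 to 90 reads per sample. The cause of the shifts between settings was not tested for any gene.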
